A study of Mus musculus with 2 samples.

Results

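The miRNA genes described here are those of red blood cells and their precursors: Mir451a, Mir451b, Mir144 and Mir486. They were chosen by gene symbol in the GENCODE M21 annotation, and 4 of the 2202 miRNA genes counted in the series carry these names. The tissue was whole adrenal gland of male B6CASTF1/J mice, an F1 hybrid strain, aged 14 days. The 2 small RNA libraries are biological replicates 1 and 2 of a single group, with no treatment, genotype or other condition between them. Each biosample record names 3 males and both records point to 1 donor entry, and the labels used here do not say whether animals were pooled or whether blood was washed out of the glands. The p-values below measure counting differences between these libraries and say nothing of conditions.

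Mir144 and Mir451a are cut from 1 primary transcript that erythroid transcription factors switch on as red cell precursors mature. Mir144 is processed in the usual way, by Drosha and then Dicer. The Mir451a precursor that Drosha releases has a stem too short for Dicer. This precursor is sliced by the Argonaute protein Ago2, after which its 3′ end is trimmed. Its miRNA is plentiful in mature red cells. Mir486 lies within Ank1, the gene of the ankyrin that anchors the red cell membrane skeleton, and its miRNA is found in blood and in muscle. Mir451b is annotated on the strand opposite Mir451a.

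RefSeq sequences on GRCm38.p6, the assembly also called mm10, were found for 3 of the 4 genes, and Mir486 is named only. The mature RNAs are shown because the libraries are of small RNAs, among which mature miRNAs are. The sample records give a size limit of 30 for both libraries but no read lengths, so it is assumed that the reads are mature miRNAs. Capitals mark the seed, bases 2 to 8, with which a miRNA recognises its targets.

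mmu-miR-451a: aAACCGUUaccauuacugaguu

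mmu-miR-144-3p: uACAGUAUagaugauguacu

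mmu-miR-144-5p: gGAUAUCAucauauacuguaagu

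mmu-miR-451b: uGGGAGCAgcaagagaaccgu

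No seed is shared among these sequences, and each was shared with 0 other mature entries among the 1738 of the RefSeq table. The hairpins are shown next because the counts are made per hairpin and because those of Mir451a and Mir451b are the same place read on opposite strands. Here capitals mark the mature miRNAs.

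Mir451a: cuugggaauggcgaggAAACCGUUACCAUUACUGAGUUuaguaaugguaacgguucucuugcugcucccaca

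Mir451b: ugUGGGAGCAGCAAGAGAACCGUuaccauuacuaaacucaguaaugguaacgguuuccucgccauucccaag

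Mir144: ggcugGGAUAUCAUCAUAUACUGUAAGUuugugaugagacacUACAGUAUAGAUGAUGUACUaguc

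Mir451a lies at chr11:78073170-78073241 on the plus strand and Mir451b at the same coordinates on the minus strand. The Mir451b hairpin is the exact reverse complement of the Mir451a hairpin, while the 2 mature miRNAs share 0 positions and are separated by 11 bases. Mir144 lies at chr11:78073005-78073070 on the plus strand, 99 bases before Mir451a. Apart from Mir451a and Mir451b on each other, GENCODE places no gene over these 3 hairpins. The next gene after Mir451a is Eral1, 134 bases away on the minus strand, and the nearest before Mir144 is Flot2, 12570 bases away. Mir486 lies at chr8:23142555-23142682 on the plus strand in an intron of Ank1, and on the other strand it overlaps both an intron of the antisense gene Gm15816 and the miRNA gene Mir3107, which RefSeq also calls mir-486b.

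The predicted folds of the 2 neighbouring hairpins differ in how the mature miRNA sits. In the Mir451a hairpin of 72 bases the longest unbroken stem has 17 base pairs and closes on a terminal loop of 4 bases. Mature miR-451a occupies positions 17 to 38, with 18 bases on the 5′ side of the loop and 4 bases that are the whole loop. In the Mir144 hairpin of 66 bases the loop has 6 bases, and both mature RNAs lie outside it, at positions 6 to 28 and 43 to 62. The predicted minimum free energies were -43.3 kcal/mol for Mir451a and -28.6 kcal/mol for Mir144.

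**Figure D1:**
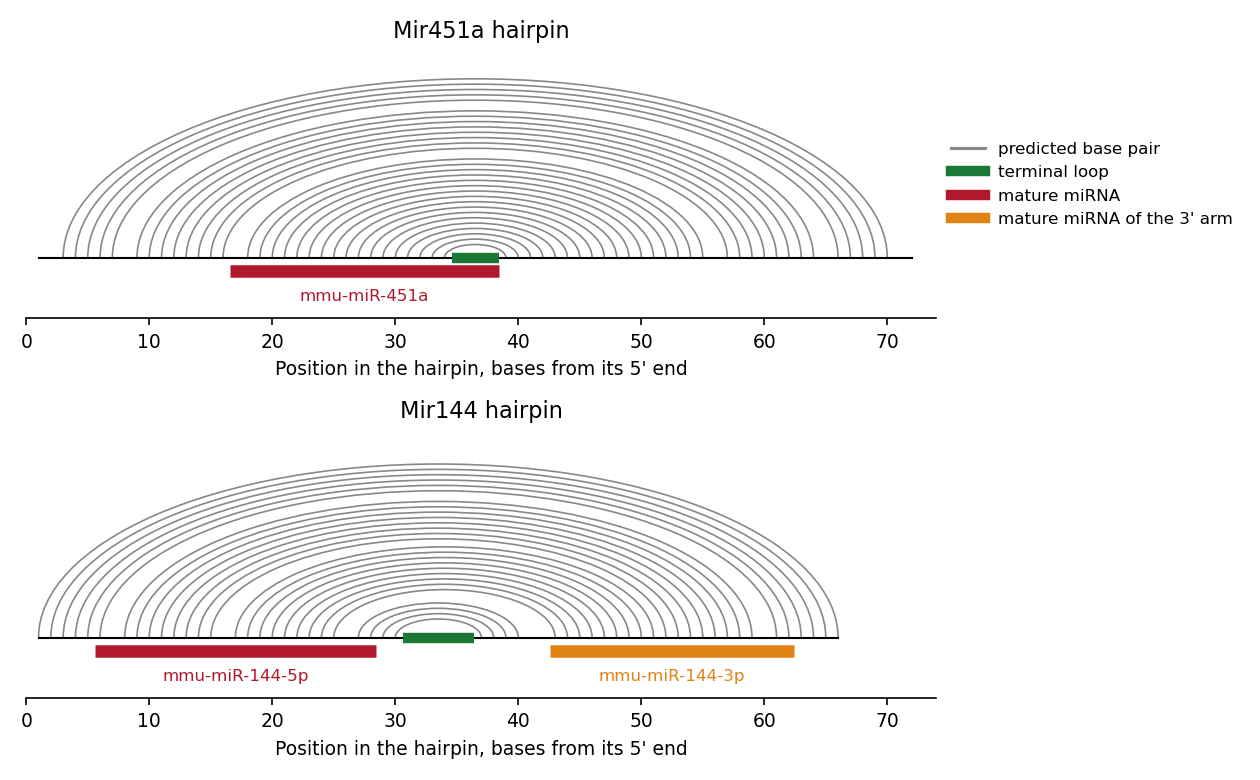
Predicted minimum free energy folds of the Mir451a and Mir144 hairpins, with position from the 5′ end in bases on the x axis, arcs for base pairs, green for the terminal loop and coloured bars for mature miRNAs. Mature miR-451a covers the 4 bases of its loop, whereas the 6-base loop of Mir144 lies between miR-144-5p and miR-144-3p.

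Replicate 1 held 3024662 counts on the strand of miRNA genes and replicate 2 held 3464837, out of 7170915 and 8479789 reads. Levels are given as CPM, the count scaled by the library's total of miRNA counts, so that 1 count is 0.331 CPM in replicate 1 and 0.289 CPM in replicate 2. They are not divided by hairpin length, since each read is taken to be a whole short RNA rather than a random fragment of the hairpin. Levels of different genes are therefore compared as shares of reads. Intervals cover counting error at 95% only and hold no variation between animals or library preparations. PCR copies are not independent molecules, so even the counting error can be larger than the intervals show.

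Together the 4 genes took 4.40% of miRNA counts in replicate 1 (exact interval 4.37 to 4.42) and 1.92% in replicate 2 (1.91 to 1.93), a mean of 3.16% ± 1.75 (SD, n = 2). Of the reads counted for these genes, Mir451a held 95.2% in replicate 1 and 89.2% in replicate 2. In whole adrenal tissue, fewer cells of a type and less RNA per cell cannot be told apart.

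Mir451a, the red cell miRNA that in mice restrains the adaptor protein Ywhaz, had 126517 counts in replicate 1 and 59339 in replicate 2. Its level was 41828 CPM in replicate 1 (exact interval 41603 to 42055) and 17126 CPM in replicate 2 (16990 to 17263). The library with the higher share had the smaller total of miRNA counts. The mean was 29477 ± 17467 CPM (SD, n = 2), which put Mir451a in place 9 of 2202 by mean level, in place 6 in replicate 1 and in place 17 in replicate 2.

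The genes next to Mir451a in mean level were Mir10a and Mir322 above it and Mir26b and Mir375 below it. Mir322, of an X-linked cluster, averaged 33054 ± 1389 CPM, and Mir26b averaged 28142 ± 16469 CPM. These means do not differ from that of Mir451a beyond its spread, but the genes were picked for closeness in mean level. In replicate 1 Mir451a stood above all 4 neighbours and in replicate 2 below all 4.

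Mir144, whose 3p miRNA represses alpha-globin synthesis through Klfd in zebrafish, had 6332 counts in replicate 1 and 7112 in replicate 2. Its level was 2093 CPM in replicate 1 (2042 to 2146) and 2053 CPM in replicate 2 (2005 to 2101), with a mean of 2073 ± 28.9 CPM (SD, n = 2). Those intervals overlap. It held place 54 by mean level, place 54 in replicate 1 and place 55 in replicate 2. Its neighbours in mean level were Mir324 at 2109 ± 60.1 CPM and Mir15a at 2105 ± 360 CPM above, and Mir431 at 2034 ± 568 CPM and Mir106b at 1879 ± 48.0 CPM below. Mir324, Mir15a and Mir431 lay within their own SD of Mir144, and Mir106b did not. None of them lay within the smaller SD of Mir144 itself. They were picked for closeness in mean level, so that closeness is not a finding.

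Mir486 had 112 counts in replicate 1 and 82 in replicate 2. Its level was 37.0 CPM (30.5 to 44.6) in replicate 1 and 23.7 CPM (18.8 to 29.4) in replicate 2, with a mean of 30.3 ± 9.45 CPM (SD, n = 2) and place 245. Its neighbours Mir378d, Mir1198, Mir363 and Mir664, also picked for closeness in mean level, had means between 29.3 and 32.3 CPM. These do not differ from the mean of Mir486 beyond its spread. The level of Mir486 was below 124 CPM, the median of the 364 genes that reached 2 CPM in both libraries. Its counts, and so this placing, can be too low for the reason given with its strand counts below.

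Mir451b had 0 counts on its own strand in either library. A limit of 3 counts allows up to 0.992 CPM in replicate 1 and 0.866 CPM in replicate 2. Mir451a was therefore at least 42172-fold higher than Mir451b in replicate 1 and at least 19780-fold higher in replicate 2, with the limit set per library. Mir451b was not detectable at this depth.

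**Figure D2:**
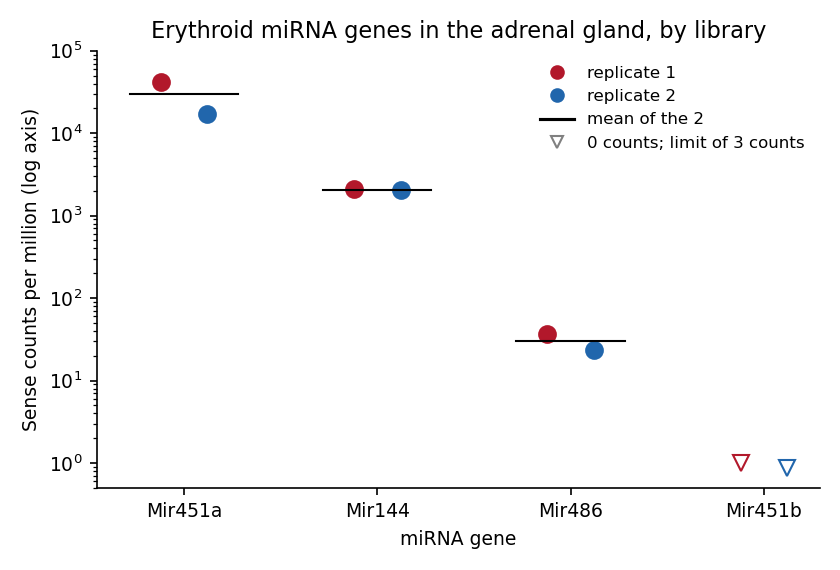
Level of each gene in CPM on a log axis, with 1 point per library, a line at the mean of the 2 libraries and open triangles at the limit of 3 counts for a gene with 0 counts. Mir451a is the most abundant and lies at 41828 CPM in replicate 1 and 17126 CPM in replicate 2, while the points of Mir144 lie side by side near 2073 CPM.

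Which gene a read from the Mir451a hairpin counts for depends on the strand. The files give counts on the strand of the gene, on the opposite strand and on either strand. On the opposite strand, Mir451b had 126517 counts in replicate 1 and 59339 in replicate 2, which are the Mir451a counts again, because both genes span the same 72 bases. On either strand Mir451a and Mir451b were at 0 in both libraries, whereas Mir144, which overlaps no gene, kept 6332 and 7112 counts. Reads that overlap more than 1 gene go to none in that column. They numbered 902374 in replicate 1 and 794418 in replicate 2, and the Mir451a reads alone equal 14.0% and 7.47% of them.

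In this respect Mir451a was like the other miRNA genes that have a partner on the opposite strand. The annotation holds 32 such overlapping pairs, 18 of them with 100 CPM or more in either gene, and Mir451a is in place 3 of these by level after Mir126a and Mir378a. In all 18 the more abundant gene kept under 1% of its counts in the column for either strand, in both libraries, and in 15 of them it had 0. This follows from the counting rule, since the pairs were picked for their overlap, and is not a finding about the miRNAs. Mir126a, the endothelial miRNA, had 470778 and 328230 counts on its strand but 6 and 12 on either strand. Mir30e with Mir30f and Mir451a with Mir451b are the 2 pairs of the 18 that share the same start and end.

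**Figure D3:**
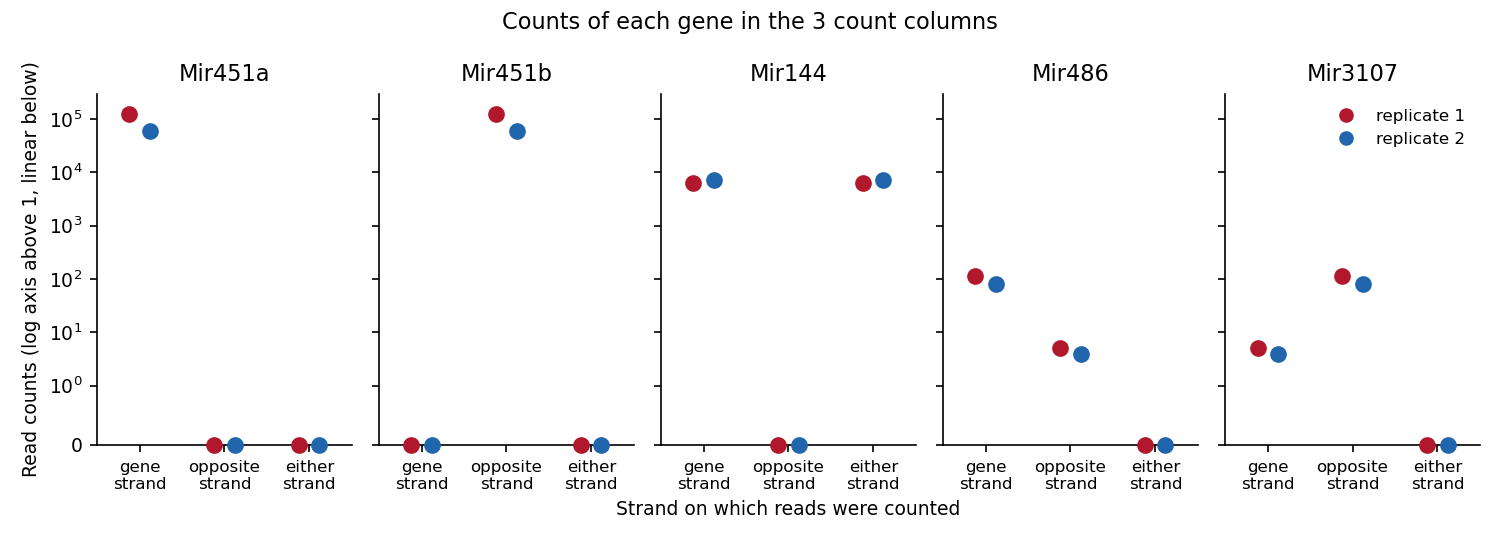
Read counts of 5 miRNA genes when reads are counted on the strand of the gene, on the opposite strand or on either strand, with 1 point per library and an axis that is logarithmic above 1. The 126517 and 59339 counts of Mir451a appear again as opposite-strand counts of Mir451b, and only Mir144 keeps its counts when either strand is counted.

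Mir486 shares its place in the same way. It had 5 opposite-strand counts in replicate 1 and 4 in replicate 2, and Mir3107 had 5 and 4 on its own strand. On either strand Mir486 was at 0 in both libraries. In addition its hairpin holds an exact stretch of 22 bases that is found again in its own reverse complement, which makes a read from that stretch match both strands. Such a stretch, of 18 bases or more, occurs in 95 of the 2202 hairpins, of which 3 reached 2 CPM in both libraries: Mir374b, Mir299a and Mir486. Mir451a, Mir451b and Mir144 hold none, and their hairpins have no 18-base stretch in common, in the same direction, with any other annotated hairpin. A multimapping read is assigned to none of its places, and such reads made up 27.5% of replicate 1 and 29.4% of replicate 2. The counts of Mir486 can therefore be too low, and how many of its reads went uncounted was not tested.

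Between the libraries, Mir451a and the counted reads of Mir486 were higher in replicate 1 and Mir144 was not distinguishable. By an exact two-sided binomial test on the counts, with Benjamini-Hochberg adjustment over 413 tested genes, 2 of the 3 testable genes were higher in replicate 1 and 0 were lower. Over all tested genes 26.6% were higher in replicate 1 and 28.8% were lower, so a call by this test is common. That split was 110 higher and 119 lower in replicate 1, against 139 higher and 74 lower with unstranded counts, in which Mir451a and Mir486 have no reads. Mir451b had too few counts to be tested.

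Mir451a was 2.44-fold higher in replicate 1 (exact interval 2.42 to 2.47, adjusted p = 1e-300, the smallest value written). Of 189 genes at 100 CPM or more, 6.88% were higher in replicate 1 by 2-fold or more, and Mir451a was in place 8 by ratio. Of the 23 genes whose mean reached 10000 CPM, 3 had a difference of at least 2-fold, namely Mir451a, Mir26b and Mir122, and Mir451a was the one of the 3 that was higher in replicate 1. Mir486 was 1.56-fold higher in replicate 1 (1.17 to 2.11, adjusted p = 0.0045 by the exact binomial test). This ratio covers only its counted reads, and whether uncounted multimapping reads would change it was not tested.

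Mir144 had a ratio of 1.02, replicate 1 over replicate 2 (0.986 to 1.06), and an adjusted p of 0.356 by the exact binomial test. The upper bound of that interval lies below 2.42, the lower bound for Mir451a. With Mir122 left out of the counts the ratio was 0.973 (adjusted p = 0.176), and with 4 other totals it stayed above 1 and passed the exact binomial test in 3, at 1.04 to 1.05.

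**Figure D4:**
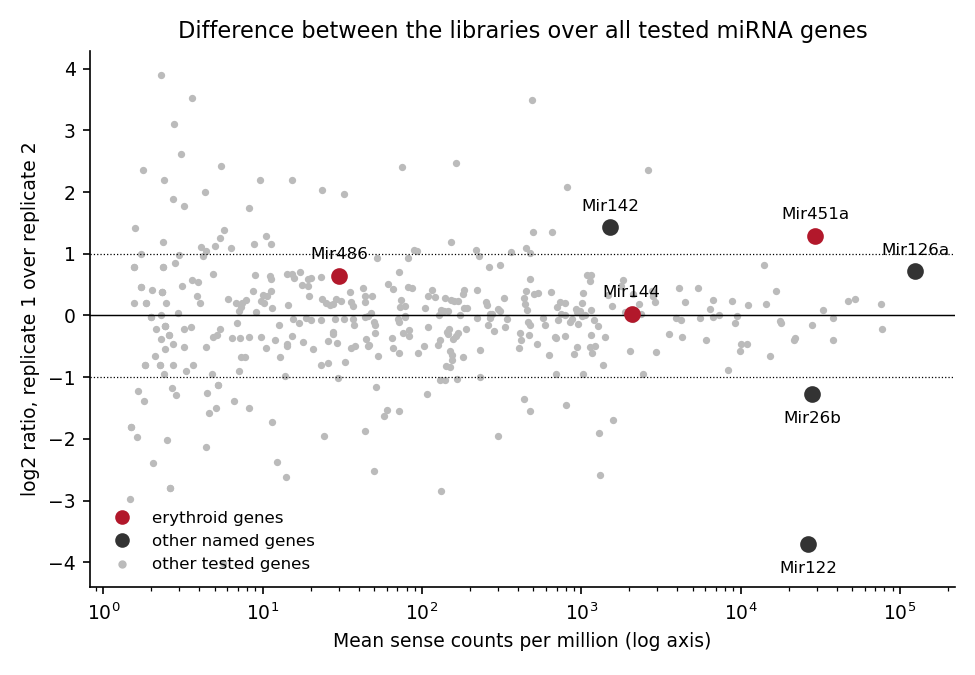
Log2 ratio of replicate 1 over replicate 2 against mean level in CPM on a log axis, for the 413 tested genes, with dotted lines at 2-fold. Mir451a and Mir142 lie above the upper line at 2.44-fold and 2.69-fold, Mir486 lies below that line and Mir144 lies at the line of no difference.

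The ratio of Mir451a to Mir144 within a library does not depend on the total used. There were 20.0 Mir451a reads for each Mir144 read in replicate 1 and 8.34 in replicate 2. The 2 hairpins of 1 primary transcript thus gave a relative abundance that differed 2.39-fold between the libraries (95% interval 2.31 to 2.48, Fisher's exact test, two-sided p = 1e-300, the smallest value written). Against Mir486 the Mir451a reads were 1130-fold in replicate 1 and 724-fold in replicate 2. The Mir486 counts can be too low, as described above, so these folds can be too high.

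By the difference in log2 ratio over these 2 libraries, the genes of 100 CPM or more nearest to Mir451a were Mir34c, Mir196b, mmu-mir-3535, Mir142 and Mir34a. Their ratios, replicate 1 over replicate 2, were 2.55, 2.56, 2.29, 2.69 and 2.13. Mir142 is expressed across white blood cell lineages, and it also has an opposite-strand partner, Mir142b. There were 18.8 Mir451a reads for each Mir142 read in replicate 1 and 20.7 in replicate 2. Nearest to Mir144 were Mir341, Gm26117 and Mir485, at ratios of 1.02, 1.01 and 1.01. With 2 libraries such a likeness rests on a single ratio per gene.

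By their counted reads, other miRNAs that are abundant in red cells or studied in erythropoiesis did not share 1 direction. All 25 genes of that list were tested, 10 were higher in replicate 1, 11 were lower and 4 did not pass. Over all tested genes 26.6% were higher in replicate 1 and 28.8% were lower. The median log2 ratio of the list was -0.03, and that of all tested genes was -0.03. Of its 4 most abundant genes, Mirlet7b, at 32874 CPM in replicate 1 and 43514 CPM in replicate 2, had a ratio of 0.755, and Mir23a, at 18705 CPM in replicate 1 and 24775 CPM in replicate 2, also had a ratio of 0.755. Mir93 had a ratio of 0.977 and passed as lower (adjusted p = 0.0451 by the exact binomial test), and Mir191 had a ratio of 0.980 and did not pass (adjusted p = 0.0657 by the same test). Mir16-1 and Mir15a, which are neighbours and whose miRNAs restrain cell cycle genes, were 1.25-fold and 1.27-fold higher in replicate 1. Mir107 was 5.11-fold higher in replicate 1, at 4374 CPM in replicate 1 and 856 CPM in replicate 2. Summed, the list took 8.19% of miRNA counts in replicate 1 and 9.50% in replicate 2. The list holds numbered copies, such as Mir16-1 with Mir16-2, Mir92-1 with Mir92-2 and Mir103-1 with Mir103-2. Where copies give the same mature RNA, its reads are multimapping and go uncounted, as described for Mir486. The counts of such genes can therefore be too low. Whether uncounted reads would change their directions, the split, the median or the sums was not tested.

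Markers of other cells were read beside these values. The 7 white blood cell genes summed to 0.488% in replicate 1 and 0.261% in replicate 2. Of the 5 tested, 4 were higher in replicate 1 and 1 was lower, where 26.6% and 28.8% of all tested genes were. Mir142b was at 0 and Mir146b had 1 count in each library. Mir142 was at 2223 CPM in replicate 1 and 825 CPM in replicate 2, and Mir155, of activated lymphocytes and macrophages, was 2.05-fold higher in replicate 1. Mir223, of neutrophils and other myeloid cells, was at 31.1 CPM in replicate 1 and 89.5 CPM in replicate 2, opposite to Mir451a. The part of other blood cells in the Mir451a difference was not tested.

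The endothelial genes Mir126a and Mir126b summed to 15.6% in replicate 1 and 9.47% in replicate 2, of which Mir126a, 1.64-fold higher in replicate 1, was nearly all. Mir126b, at 2.31 CPM in replicate 1 and 6.93 CPM in replicate 2, was lower in replicate 1 by the exact binomial test (ratio 0.334, adjusted p = 0.0207), so 1 of the 2 genes was higher and 1 lower. Mir122, of hepatocytes, took 0.379% in replicate 1 and 4.95% in replicate 2. The neuroendocrine genes Mir375, Mir7b and Mir7-1, expressed in cells like those of the medulla, summed to 3.11% in replicate 1 and 3.42% in replicate 2. The mesenchymal genes Mir143 and Mir145a summed to 5.24% in replicate 1 and 4.46% in replicate 2. The summed share of the erythroid genes had a ratio of 2.29, replicate 1 over replicate 2, which is in effect that of Mir451a. The same ratio was 1.87 for white blood cells, 1.64 for endothelial, 1.17 for mesenchymal and 0.908 for neuroendocrine genes. It was 0.862 for the counted reads of the other red cell and erythropoiesis genes and 0.0765 for Mir122. The part of vessels or of liver RNA in the Mir451a difference was not tested.

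**Figure D5:**
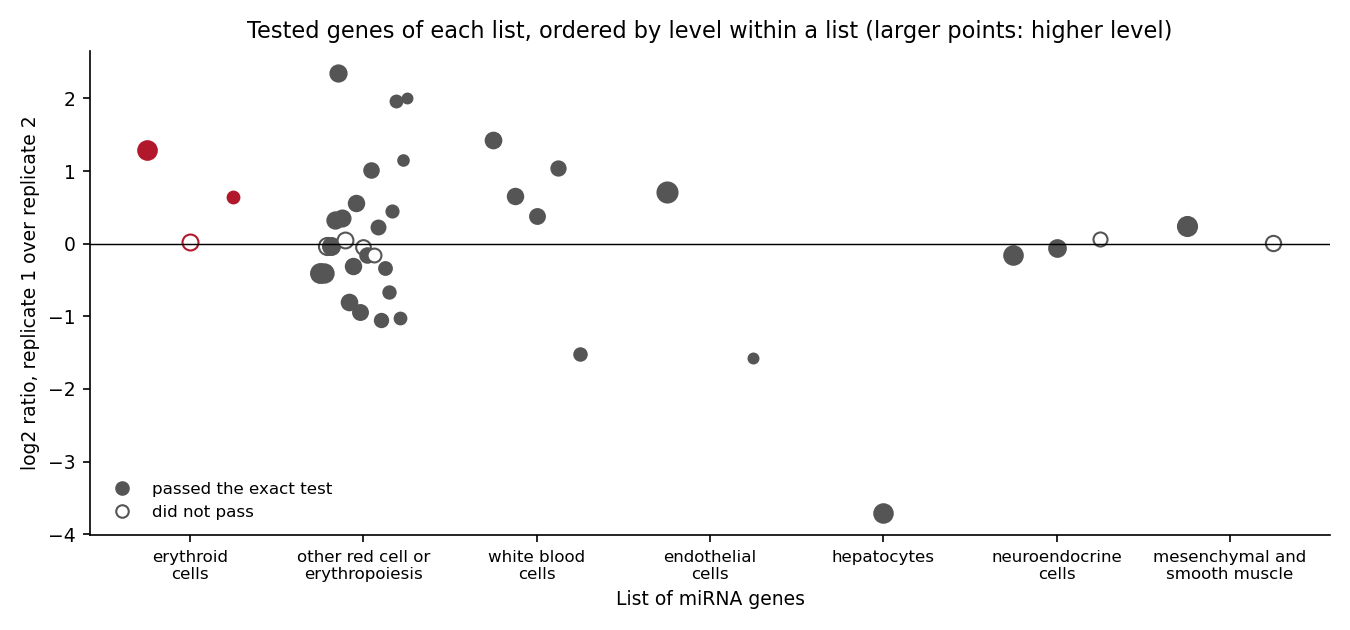
Log2 ratio of replicate 1 over replicate 2 for the tested genes of 7 lists, with larger points for higher levels, filled where the exact test was passed and open where it was not. Of the erythroid genes Mir451a and Mir486 lie above 0 and Mir144 lies at 0, while the 25 other red cell and erythropoiesis genes lie on both sides.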

How the data were processed

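Small RNA from the adrenal gland was sequenced in 2 libraries. The authors deposited raw read counts per miRNA gene, 1 file per library, on mm10 with GENCODE M21, per the deposited notes. The sources used here name neither aligner nor counter. Each file has 4 summary rows and 3 count columns, which from the values hold reads of either strand, of the strand of the gene and of the opposite strand. The column for the strand of the gene was used. The summary rows, 57.8% of reads in replicate 1 and 59.1% in replicate 2, stayed out of totals and tests.

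All 2202 identifiers matched GENCODE M21. Replicate 1 was compared with replicate 2 for genes with 10 or more counts in both libraries together, by an exact conditional binomial test with Benjamini-Hochberg adjustment at 0.05. This test covers counting error only. An exact sign-flip test of 2 libraries gives p = 0.5 at least, so levels have no test. The test was tested on simulated data. Those data held counting error only, so they cannot show how the test behaves between animals. Shares have exact Clopper-Pearson intervals at 95%, and the odds ratio has a normal-approximation interval on the log scale.

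The genes named are the 4 members, the 2 genes above and below each in level, the genes nearest in log2 ratio at 100 CPM or more, up to 4 leading genes of each marker list and opposite-strand pairs. Mir223, Mir107, Mir155, Mir146b and the list members at 0 are named where they bear on a count, and Mir107 and Mir16-1 were chosen after their values were seen. The members and lists were chosen with earlier results of these data known. Alternatives were TMM and DESeq2 size factors, all reads as total, totals without Mir122 or without the members, unstranded counts, other count minimums and each library alone.

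Folds came from ViennaRNA 2.7.2 and size factors from edgeR 4.0.16 and DESeq2 1.42.0 in R 4.3.3. Tests used SciPy 1.17.1 and tables pandas 2.3.3 in Python 3.11.15, with figures by matplotlib 3.10.9.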

Additional observations from a re-analysis of the deposited data

Results flagged for a closer look

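Reads outside the comparisons exceeded the limit that a count of 0 allows. Reads mapping to several places made up 27.5% of replicate 1 and 29.4% of replicate 2 and were assigned to no gene. Counts on the strand opposite Mir486 numbered 5 in replicate 1 and 4 in replicate 2. No control samples exist for comparison.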

How the results depend on the processing

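The ratio of Mir451a ranged from 2.33 to 2.52 and that of Mir486 from 1.49 to 1.62 over the other totals, with the same calls. Neither could be fitted on unstranded counts, where both genes are at 0. The Mir144 ratio was 0.973 without Mir122 (reversed, not passing). It passed the exact binomial test at 1.04 with TMM factors, 1.05 with all reads as total, 1.05 without the members in the total and 1.12 with unstranded counts, with adjusted p from 1.83e-10 to 0.0494. On unstranded counts the mean levels were 0 CPM for Mir451a and Mir486 and 2823 CPM for Mir144, the summed share was 0.282%, Mir144 held place 48 and the Mir451a counts less those of Mir451b were 0. These shifts follow from reads over overlapping genes going to no gene. Without Mir122 the Mir144 level was 2130 CPM. Of the tested genes 229 were called, 110 higher and 119 lower in replicate 1. By 2-fold at 100 CPM or more there were 28, 13 higher and 15 lower. With unstranded counts 139 were higher and 74 lower. By single libraries Mir451a held places 6 to 17 and Mir144 places 54 to 55. Mir451a spanned 17126 to 41828 CPM and the summed share 1.92% to 4.40%. With 2 libraries each lies within 1 SD of their mean by construction, so this is no sign of stability. No paired analysis was possible because there is 1 group. Among the tested members Mir486 had the fewest counts, and how many of its reads went uncounted was not tested. Mir451b had 0 counts on its own strand.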
